A study of Mus musculus with 4 samples.

Results

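*Cdkn1c*, *Cdkn1b*, *Cdkn2c* and *Cdkn2d*, 4 of the 27998 genes counted in the series, encode inhibitors of cyclin-dependent kinases that act when a cell leaves the cell cycle. They were chosen by name, with earlier results of these data known. They were followed in ITGA7+/VCAM+/Lin- satellite cells, sorted out of lower hindlimb muscle of 4 mouse strains. B10 mice (C57/Bl10ScsSn, 15 weeks) are the healthy strain for *mdx* (C57BL/10ScSn-Dmdmdx, 11 weeks), and DBA mice (DBA/2, 13 weeks) are the healthy strain for D2-*mdx* (D2.B10-Dmdmdx, 14 weeks). Both dystrophic strains carry the *mdx* nonsense mutation of *Dmd*, which stops dystrophin, and the study gives all mice as male. Muscles of 2 mice were pooled per strain and gave 1 10X Genomics 3′ single-cell library, so no strain has replicates, no test was run, and age, strain and library cannot be told apart. A fit of both dystrophic against both healthy strains, with the strains as replicates, was not made. The intervals below are 95% intervals of the counts (exact Poisson for levels, exact binomial for shares and for log2 ratios) and cover counting error only.

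Proliferation of a myoblast ends when cyclin-dependent kinases are blocked and the retinoblastoma family of pocket proteins stays bound to E2F factors. The CIP/KIP inhibitors p57 (*Cdkn1c*) and p27 (*Cdkn1b*) bind complexes of cyclins D, E and A with their kinases, whereas the INK4 inhibitors p18 (*Cdkn2c*) and p19 (*Cdkn2d*) bind CDK4 and CDK6 alone. *Cdkn1c* is an imprinted gene expressed from the maternal allele, it is known in muscle for its induction with differentiation, and p27 is known for marking slowly dividing satellite cells. In mouse (GRCm38, GENCODE M21), *Cdkn1c* (ENSMUSG00000037664) lies on the minus strand of chromosome 7 from 143458339 to 143461050, *Cdkn1b* (ENSMUSG00000003031) on the plus strand of chromosome 6 from 134920401 to 134925513, *Cdkn2c* (ENSMUSG00000028551) on the minus strand of chromosome 4 from 109660876 to 109667189 and *Cdkn2d* (ENSMUSG00000096472) on the minus strand of chromosome 9 from 21288410 to 21291407. An antisense gene inside *Cdkn1c*, *Gm44732*, is the only annotated overlap of these 4 genes, and it is no row of the counts.

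Filtering left 4581 cells of B10, 6313 of *mdx*, 3279 of DBA and 5756 of D2-*mdx*, with median depths between 6666 and 10434 unique molecular identifiers (UMIs) per cell, and any pair of libraries shared 3 to 8 kept barcodes. *Dmd*, whose 3′ reads do not cover the mutated base, was at 324 and 287 counts per 1000000 UMIs (CPM) in the myogenic cells of B10 and DBA and at 120 and 94.2 CPM in those of *mdx* and D2-*mdx*. Clusters were named from marker genes, with the inhibitor genes kept out of the clustering. The myogenic cells (4418, 4821, 2700 and 4184 in B10, *mdx*, DBA and D2-*mdx*) fell into muscle stem cell-like (MuSC-like) cells with *Pax7* and *Myf5*, a matrix-expressing state led by *Postn*, *Mgp* and *Gper1*, differentiating myocyte-like cells led by *Actc1*, *Myog* and *Tmem8c*, cycling progenitor-like cells led by *Cenpf*, *Hmmr* and *Ccnb2*, interferon-responding cells led by *Ifit1*, *Ifit3* and *Iigp1*, and an unnamed cluster led by *Esm1*, *Fosl1* and *Tnc*. MuSC-like cells were 93.5% and 93.6% of the myogenic cells of B10 and DBA and 66.5% and 69.2% of those of *mdx* and D2-*mdx*. The sort was meant to remove CD31+ and CD45+ cells, yet endothelial cell-like cells (9 to 252 per library) and white blood cell-like cells (1 to 162) were present beside pericyte-like and glial cell-like cells. In the myogenic cells, the summed markers of each of these types stayed at or below 1.32% of their level in the type itself.

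*Cdkn1c* was the member that differed most between the libraries. In the myogenic cells it was at 31.1 CPM in B10 (29.4 to 32.9), 1039 CPM in *mdx* (1029 to 1049), 51.6 CPM in DBA (49.1 to 54.2) and 551 CPM in D2-*mdx* (543 to 559). Both dystrophic libraries were far above both healthy ones, and no interval touched another. As log2 ratios, *mdx* was 5.06 (4.98 to 5.15) above B10, and D2-*mdx* was 3.42 (3.34 to 3.49) above DBA. These were the 27th highest of 8478 genes and the 74th highest of 8502 genes that reached 10 CPM in either library of the pair. Within MuSC-like cells alone the ratios were smaller, 2.72 (2.60 to 2.84) and 1.70 (1.54 to 1.85). In D2-*mdx* the MuSC-like level lay near that of glial cell-like cells, as given below. Summed markers of mature myonuclei were also higher in the dystrophic myogenic cells, at 86.3 and 214 CPM in *mdx* and D2-*mdx* against 29.0 and 24.2 CPM in B10 and DBA, and so were those of erythrocytes, at 461 and 927 CPM against 276 and 299 CPM. Within MuSC-like cells the erythrocyte sums were 907 and 1342 CPM against 24.3 and 325 CPM. The myonuclei sums there were 39.1 and 127 CPM against 28.7 and 21.6 CPM. The part of either marker set in the *Cdkn1c* difference was not tested.

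Of the 4 members, 1 was at least 2-fold higher in *mdx* than in B10, *Cdkn1c*, where 4.71% of all tested genes were, and 0 were at least 2-fold lower, where 5.17% of all genes were. The same 1 of 4 was past 2-fold in D2-*mdx* over DBA (5.83% of all genes higher and 5.83% lower), and 0 of 4 were lower. With 4 genes, these counts read only as a description of *Cdkn1c*. Between backgrounds, 0 of 4 members passed 2-fold in either direction, against 3.52% of genes for D2-*mdx* over *mdx* and 3.55% for DBA over B10. *Cdkn1c* nevertheless differed beyond its counting interval there, lower in D2-*mdx* than in *mdx* by a log2 ratio of -0.92 (-0.94 to -0.89) and higher in DBA than in B10 by 0.73 (0.62 to 0.84). The healthy UMIs lay in few cells. Of the 1554 DBA UMIs, 987 were in 31 differentiating myocyte-like cells, with up to 267 in a cell. Of the 1240 B10 UMIs, 474 were in 12 such cells, with up to 185 in a cell. The intervals do not cover this spread between cells.

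**Figure D1:**
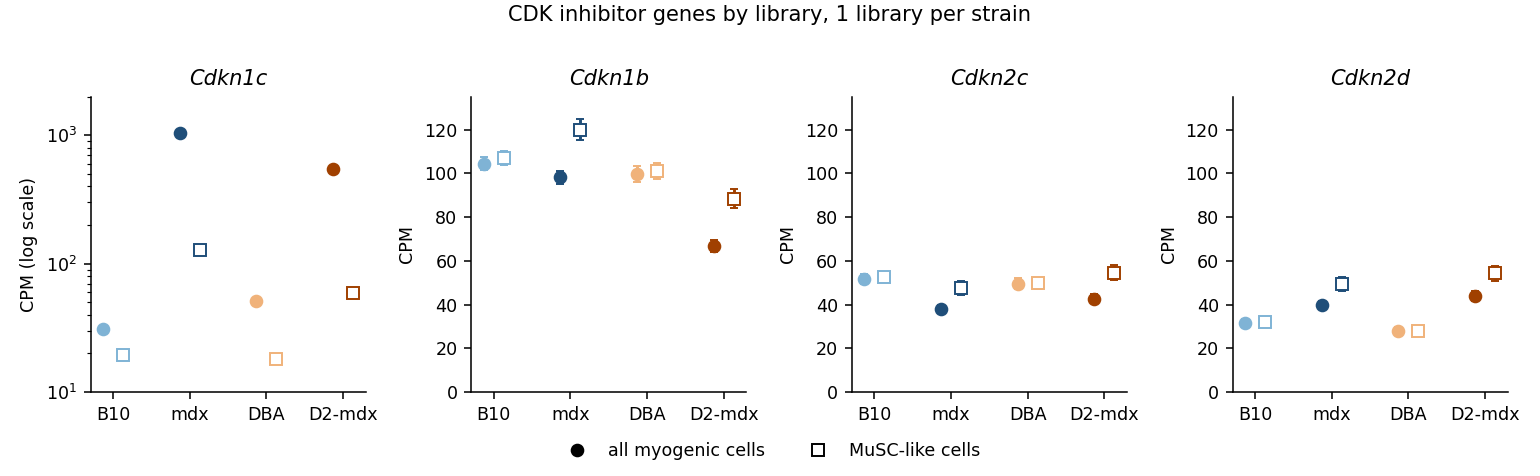
CPM of each inhibitor gene (y axis, log scale for *Cdkn1c* and linear from 0 for the others) in each library (x axis), over all myogenic cells (filled circles) and over MuSC-like cells only (open squares), with 95% Poisson intervals. *Cdkn1c* spans 31.1 to 1039 CPM over all myogenic cells, while *Cdkn1b* stays between 66.9 and 104 CPM, *Cdkn2c* between 37.9 and 51.7 CPM and *Cdkn2d* between 27.9 and 43.8 CPM.

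By state, *Cdkn1c* was highest in the differentiating myocyte-like cells of every library. These cells are marked by *Myog*, the myogenin gene that drives terminal differentiation. Their *Cdkn1c* level was 874 CPM in B10 (797 to 956, 38 cells), 7102 CPM in *mdx* (7010 to 7195, 228 cells), 1219 CPM in DBA (1144 to 1298, 52 cells) and 4922 CPM in D2-*mdx* (4835 to 5010, 209 cells). The dystrophic differentiating cells thus stood above the healthy ones by log2 ratios of 3.02 (2.89 to 3.16) and 2.01 (1.92 to 2.11). *Myog* itself was also higher there, at 3712 and 2919 CPM in *mdx* and D2-*mdx* against 636 and 637 CPM in B10 and DBA, and *Pax7*, the stem cell factor, was at 64.3 and 93.1 CPM against 400 and 324 CPM, so the cells that carry this name were not at like stages in the 4 libraries.

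The matrix-expressing state was next in both dystrophic libraries. *Cdkn1c* reached 1338 CPM in its 875 *mdx* cells (1316 to 1359) and 701 CPM in its 501 D2-*mdx* cells (680 to 722). In the 37 B10 and 32 DBA cells of the state it was at 13.6 CPM (4.42 to 31.8) and 68.1 CPM (45.6 to 97.9). The B10 value rests on 5 UMIs and the DBA value on 29. The log2 ratio of *mdx* to B10 in this state was 6.62 (5.39 to 8.24), the largest among the states with a *Cdkn1c* UMI in B10, and that of D2-*mdx* to DBA was 3.36 (2.84 to 3.94). Levels between states depended on where clusters were drawn: at a coarser resolution of 0.2 the matrix-expressing and *Myog* cells formed 1 cluster with 2004 CPM in *mdx* and 1304 CPM in D2-*mdx*.

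Cycling progenitor-like cells, which carry *Mki67* and *Top2a*, held *Cdkn1c* at 381 CPM in *mdx* (356 to 407, 160 cells) and 267 CPM in D2-*mdx* (254 to 282, 347 cells). In DBA the level was 19.4 CPM (8.39 to 38.3) over 26 cells, and in B10 there were 0 UMIs in 8 cells, with an interval of 0 to 32.8 CPM. Interferon-responding cells were at 31.1 CPM in B10, 481 CPM in *mdx* and 167 CPM in D2-*mdx*, and the DBA library had 13 such cells with 4 UMIs. The cluster led by *Esm1* was lower than both of these states in the dystrophic libraries, at 163 and 54.3 CPM in *mdx* and D2-*mdx*, and was at 11.8 CPM in B10 and 30.4 CPM in DBA.

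In MuSC-like cells *Cdkn1c* was at 19.5 CPM in B10 (18.09 to 20.98), 128 CPM in *mdx* (123 to 133), 18.2 CPM in DBA (16.7 to 19.9) and 59.0 CPM in D2-*mdx* (55.5 to 62.7). The healthy libraries could not be told apart, with a log2 ratio of -0.10 (-0.27 to 0.07) for DBA over B10. Over the 6 clusters called MuSC-like, the *mdx* level ran from 52.8 to 232 CPM and the B10 level from 13.5 to 31.4 CPM. The *mdx* value moved by more than 1.5 times with the clustering, to 58.2 CPM over 2205 cells in clusters made without integration. Glial cell-like cells, in which free RNA would also be caught, held 28.9, 63.3, 31.9 and 56.6 CPM in B10, *mdx*, DBA and D2-*mdx*, also higher in the dystrophic libraries, and the part of free RNA in the MuSC-like values was not tested. At 3000 UMIs per cell, a *Cdkn1c* UMI was found in 5.89% and 4.91% of MuSC-like cells of B10 and DBA, which could not be told from glial cell-like cells, where it was 2 of 21 (1.17% to 30.4%) and 2 of 31 cells (0.791% to 21.4%), with unthinned median depths of 6532 and 12917 UMIs against 8317 and 10178. These healthy shares are not read as expression. In B10 barcodes with under 500 genes *Cdkn1c* was at 11.4 CPM (7.14 to 17.2), below the MuSC-like cells of that library. In *mdx* the share was 20.4% against 9.80% in glial cell-like cells. In D2-*mdx* it was 12.1% (11.0 to 13.4) against 10.4% of 230 cells, and its MuSC-like CPM interval held the glial cell-like level. The D2-*mdx* share is therefore not read as expression either. The comparison depends on the type it is made with. In D2-*mdx* the mean *Cdkn1c* UMIs per thinned cell were 0.162 in MuSC-like, 0.135 in glial cell-like, 0.166 in pericyte-like and 0.0494 in 162 white blood cell-like cells. In *mdx* they were 0.341, 0.157, 0.208 and 0.321 in the same order. Without thinning the MuSC-like shares were 13.1% in B10 and 15.0% in DBA, and 32.2% and 21.4% in *mdx* and D2-*mdx*.

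**Figure D2:**
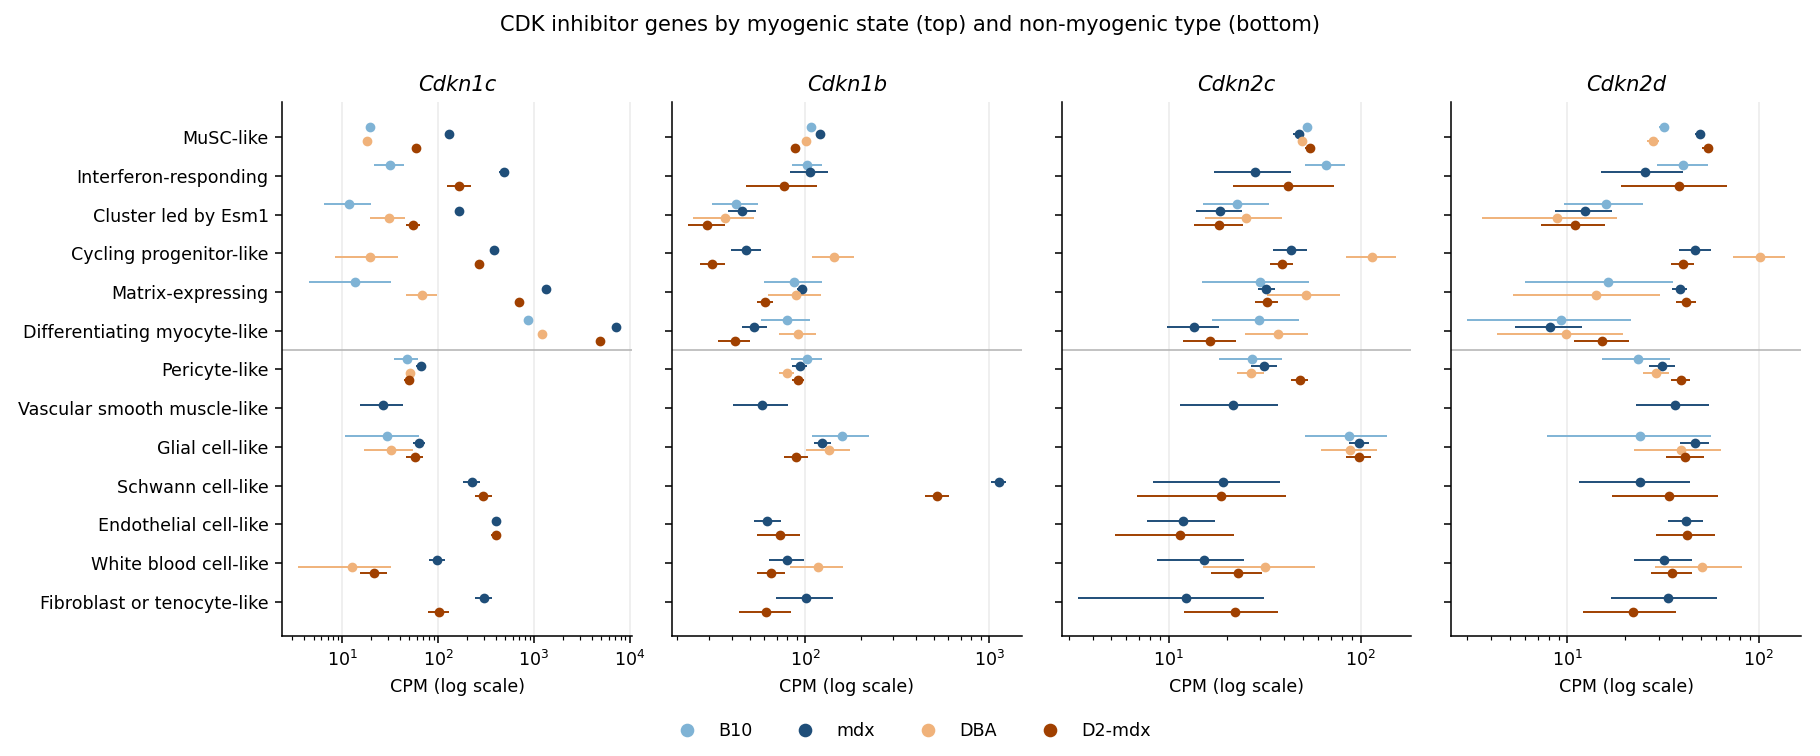
CPM (x axis, log scale) of the 4 inhibitor genes in each myogenic state (above the grey line) and non-myogenic type (below it), 1 point per library with at least 20 cells and at least 1 UMI and its 95% Poisson interval. *Cdkn1c* peaks in differentiating myocyte-like cells of all 4 libraries (874 to 7102 CPM), and *Cdkn1b* peaks in Schwann cell-like cells of *mdx* and D2-*mdx* (1124 and 523 CPM).

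Outside the myogenic cells, *Cdkn1c* was high in some types, and the types with enough cells in both strains of a pair showed smaller differences than the myogenic cells. Endothelial cell-like cells of *mdx* (252 cells) and D2-*mdx* (89 cells) were at 403 CPM (376 to 430) and 398 CPM (355 to 445), which overlap. The 14 B10 and 9 DBA endothelial cell-like cells held 46 and 72 UMIs. Schwann cell-like cells, which myelinate axons, were at 223 CPM in *mdx* (180 to 273) and 296 CPM in D2-*mdx* (239 to 361), and fibroblast- or tenocyte-like cells at 300 CPM (244 to 366) and 102 CPM (79.0 to 130). Pericyte-like cells stayed between 46.7 and 65.9 CPM in the 4 libraries, with a log2 ratio of 0.50 (0.06 to 0.96) between *mdx* and B10 and of -0.06 (-0.29 to 0.16) between D2-*mdx* and DBA. In *mdx* the order of levels ran from differentiating, matrix-expressing and interferon-responding cells through endothelial, cycling, fibroblast or tenocyte and Schwann cells to the *Esm1* cluster, MuSC, white blood cells, pericytes, glial and vascular smooth muscle cells. Among these neighbours the intervals overlapped from endothelial through cycling (381 CPM) and fibroblast or tenocyte to Schwann cells, each with the next, and between pericyte (65.9 CPM) and glial (63.3 CPM) cells. These intervals do not cover the spread between cells. The interferon-responding UMIs of *mdx* lay in 31 of 86 cells, with up to 82 in a cell. In thinned cells the order changed, with a mean of 0.837 UMIs in interferon-responding cells. It was 1.28 in endothelial, 0.994 in cycling and 0.931 in fibroblast or tenocyte cells.

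Most *Cdkn1c* UMIs of the dystrophic libraries came from small states. Differentiating myocyte-like cells gave 54.0% of the 41970 myogenic *Cdkn1c* UMIs of *mdx* (53.5 to 54.4) and 63.8% of the 19231 of D2-*mdx* (63.1 to 64.4), with 7.90% and 7.14% of all myogenic UMIs. The matrix-expressing state added 35.9% in *mdx* and 22.2% in D2-*mdx*, and MuSC-like cells held 6.11% and 5.55%. In the healthy libraries, MuSC-like cells gave 57.6% of 1240 UMIs in B10 and 32.3% of 1554 in DBA, and differentiating cells 38.2% and 63.5%. When each dystrophic library was given the state composition of its control, *Cdkn1c* came to 245 CPM for *mdx* and 202 CPM for D2-*mdx*, so the log2 ratios went from 5.06 to 2.98 and from 3.42 to 1.97. Both the size of the states and the level within them differed between libraries. The matrix-expressing state alone did not carry the difference, since without it the ratios were 4.89 (4.80 to 4.97) and 3.34 (3.26 to 3.41).

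**Figure D3:**
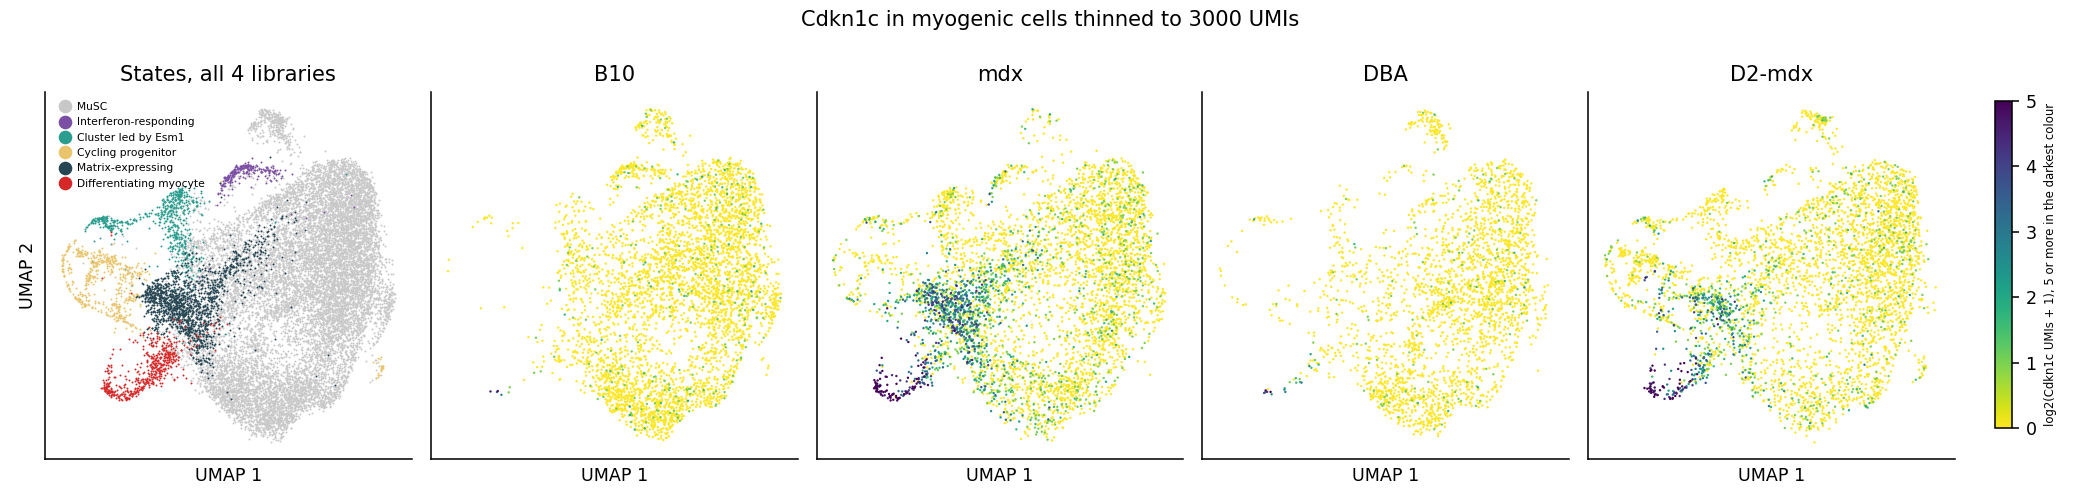
UMAP of the myogenic cells (axes without units), with the states of all 4 libraries in the left panel and, per library, log2 of *Cdkn1c* UMIs plus 1 in cells thinned to 3000 UMIs. Dark cells gather in the differentiating arm of all libraries and in the matrix-expressing region of *mdx* and D2-*mdx*, where 69.1% and 51.5% of cells had a *Cdkn1c* UMI.

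Single cells differed widely. In cells thinned to 3000 UMIs, the median differentiating myocyte-like cell held 11 *Cdkn1c* UMIs in *mdx* (quartiles 2 and 32, maximum 92) and 4 in D2-*mdx* (quartiles 1 and 21, maximum 73), while the median was 0 in B10 and DBA with maxima of 25 and 44. The few healthy cells with high counts thus reached the range of the dystrophic ones. The median matrix-expressing cell held 2 UMIs in *mdx* and 1 in D2-*mdx*. The richest 1% of myogenic cells held 40.5% and 60.6% of *Cdkn1c* UMIs in B10 and DBA, and 27.6% and 39.7% in *mdx* and D2-*mdx*. The same share for *Cdkn1b* was 8.37% to 9.62%, for *Cdkn2c* 12.8% to 15.8% and for *Cdkn2d* 15.7% to 18.8%, so *Cdkn1c* was the member concentrated in few cells. Of the cells with a UMI of these other members, 80.8% to 93.9% held just 1. For *Cdkn1c* it was 42.3% in *mdx* and 52.8% in D2-*mdx*, but 85.0% in B10 and 80.3% in DBA.

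Joint detection was read in cells thinned to 3000 UMIs, which left out 39 B10 cells and none of the other myogenic cells. Cells with *Myog* had *Cdkn1c* far more often than cells without it. In *mdx*, 72.1% of 276 *Myog*+ cells (66.4 to 77.3) and 29.97% of *Myog*- cells had a *Cdkn1c* UMI, and in D2-*mdx* 56.7% of 335 (51.2 to 62.1) and 17.6%. In B10 it was 6 of 11 *Myog*+ cells against 5.95%, and in DBA 13 of 27 against 5.20%. The same order held inside the differentiating myocyte-like state, with 88.9% of *Myog*+ against 52.1% of *Myog*- cells in *mdx*, 87.7% against 56.4% in D2-*mdx*, 13 of 20 against 8 of 32 cells in DBA and 6 of 7 against 3 of 30 in B10. It also held inside the cycling state, with 68.8% of only 16 *Myog*+ cells against 25.7% in *mdx* and 23 of 50 cells against 15.8% in D2-*mdx*. Read the other way, 12.7% of *Cdkn1c*+ cells in *mdx* and 21.9% in D2-*mdx* had *Myog*, so most *Cdkn1c*+ cells had no *Myog* UMI at this depth. *Myog* was found in 2.78% and 3.37% of endothelial cell-like cells of these libraries (unthinned median depths 7481 and 7687 UMIs), and in a like share of MuSC-like cells (1.72% and 3.39%).

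*Pax7* was read against *Cdkn1c* in the same cells. Over all myogenic cells, *Cdkn1c* was less frequent where *Pax7* was found, at 29.8% against 38.0% in *mdx*, 17.4% against 28.0% in D2-*mdx*, 5.03% against 8.76% in DBA and 5.85% against 8.25% in B10, where the intervals overlap (5.14 to 6.62 and 5.78 to 11.3). Without thinning the shares of *mdx* were 45.2% and 45.4%. Within MuSC-like cells the shares with and without *Pax7* did not differ beyond their intervals, with 20.6% (19.0 to 22.3) and 19.8% (17.0 to 22.8) in *mdx* and 12.0% (10.7 to 13.4) and 12.5% (10.0 to 15.4) in D2-*mdx*. In the matrix-expressing state most *Cdkn1c*+ cells also had *Pax7*, 66.8% in *mdx* and 59.3% in D2-*mdx*. There *Cdkn1c* was found in 68.1% of *Pax7*+ and 71.3% of *Pax7*- cells in *mdx*, with overlapping intervals, and in 47.2% (41.7 to 52.8) and 59.3% (51.7 to 66.6) in D2-*mdx*, which overlap by a narrow margin. Inside the differentiating state *Pax7*+ cells had *Cdkn1c* less often, at 52.8% (35.5 to 69.6) against 86.5% (80.8 to 91.0) in *mdx* and 17.2% (5.85 to 35.8) against 69.6% (47.1 to 86.8) in DBA. In B10 and D2-*mdx* the shares lay in the same order, 13.0% against 42.9% and 66.0% against 83.3%, with overlapping intervals. *Pax7* was found in 15.8% and 22.5% of the differentiating cells of *mdx* and D2-*mdx*, close to its 16.5% and 19.8% in white blood cell-like cells and above its 2.78% and 6.74% in endothelial cell-like cells, and the part of free RNA in these *Pax7* reads was not tested.

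*Mki67*, a marker of dividing cells, did not separate *Cdkn1c*+ from *Cdkn1c*- cells. *Cdkn1c* was found in 32.1% of *Mki67*+ (25.1 to 39.8) and 32.4% of *Mki67*- cells in *mdx* and in 21.3% (16.0 to 27.4) and 20.7% in D2-*mdx*. In the healthy libraries 4 of 71 and 1 of 32 *Mki67*+ cells had both. Within cycling progenitor-like cells the shares were 26.8% (15.8 to 40.3) with and 31.7% (23.0 to 41.6) without *Mki67* in *mdx* and in D2-*mdx* 18.8% (12.4 to 26.6) with *Mki67*, beside 20.2% over all 347 cells of the state. The intervals leave room for differences of several percent in either direction. Without thinning, when deeper cells give more of both genes, *Mki67*+ cells had *Cdkn1c* more often, 54.1% against 44.5% in *mdx* and 39.1% against 31.3% in D2-*mdx*. Cycling cells were the deepest state, with median depths of 13919 and 13965 UMIs against 5646 and 5620 in MuSC-like cells.

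**Figure D4:**
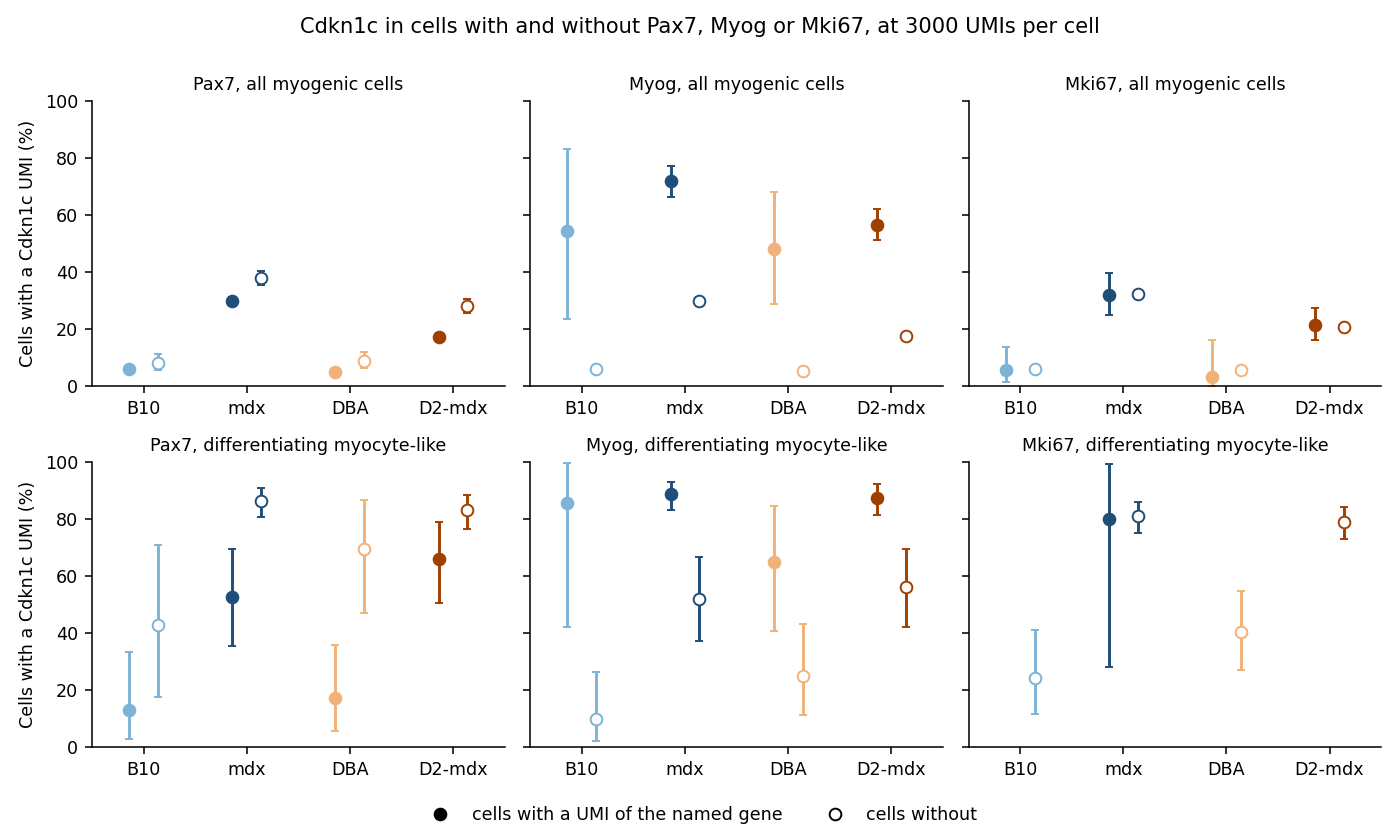
Percent of cells with a *Cdkn1c* UMI (y axis) among cells with (filled) and without (open) a UMI of *Pax7*, *Myog* or *Mki67*, per library, at 3000 UMIs per cell with 95% binomial intervals, over all myogenic cells (top) and within differentiating myocyte-like cells (bottom); groups under 5 cells are not drawn. *Myog*+ cells stand above *Myog*- cells in all 4 libraries, and *Mki67* leaves the shares of *mdx* at 32.1% and 32.4%.

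Grouping the thinned cells by their *Cdkn1c* count gave a gradual picture in the dystrophic libraries. From cells with 0 to cells with 8 or more *Cdkn1c* UMIs, *Pax7* went from 518 CPM (504 to 532) to 237 CPM (207 to 270) in *mdx* and from 544 CPM (529 to 558) to 116 CPM (85.0 to 155) in D2-*mdx*. *Myf5*, the early myogenic factor, went from 502 to 237 CPM and from 399 to 68.2 CPM. *Myog* went from 20.6 CPM to 1991 CPM in *mdx* and from 28.5 to 2960 CPM in D2-*mdx*, and was at 265 and 519 CPM in cells with 4 to 7 UMIs. *Myod1*, the determination factor, differed between the libraries along the way. In D2-*mdx* it was higher in each successive group, from 145 CPM through 172, 236 and 340 to 576 CPM, whereas in *mdx* it stayed between 94.2 and 133 CPM up to 7 UMIs and was at 286 CPM above. The matrix-expressing share peaked at 4 to 7 UMIs, with 68.2% of those cells in *mdx* and 56.7% in D2-*mdx*, and in cells with 8 or more UMIs differentiating cells made up 41.8% in *mdx* and 65.9% in D2-*mdx*.

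*Mki67* in both dystrophic libraries, and *Top2a* in D2-*mdx*, followed no steady order along the *Cdkn1c* count. In D2-*mdx* cells with 1 *Cdkn1c* UMI, *Mki67* was at 43.7 CPM (33.3 to 56.2) and *Top2a* at 44.4 CPM (33.96 to 57.03), and in *mdx* cells with 2 to 3 UMIs *Mki67* was at 22.2 CPM (14.2 to 33.1). *Mki67* was at 16.9 CPM in *mdx* cells with 0 *Cdkn1c* UMIs and 10.5 CPM (5.03 to 19.3) in those with 8 or more, and at 32.0 and 15.2 CPM (5.56 to 33.0) in D2-*mdx*. *Top2a*, another gene of dividing cells, was lower in each successive group of *mdx*. It went from 14.3 CPM (12.0 to 16.9) through 10.6, 6.48 and 4.48 to 4.19 CPM (1.14 to 10.7), and the intervals of neighbouring groups overlapped. In D2-*mdx* cells with 0 and with 8 or more *Cdkn1c* UMIs it was at 30.3 and 10.1 CPM (2.75 to 25.9). *Ccnd1*, which encodes the cyclin D1 that activates CDK4 and CDK6, lay between 132 and 172 CPM in *mdx* and between 318 and 370 CPM in D2-*mdx* across the groups. In B10 and DBA only the groups with 0 and 1 UMI, and in B10 that with 2 to 3, held 20 cells or more, and *Pax7* ranged from 923 to 1065 CPM in B10 and from 691 to 718 CPM in DBA. The 3 B10 and 5 DBA cells with 8 or more UMIs were all in the differentiating state.

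**Figure D5:**
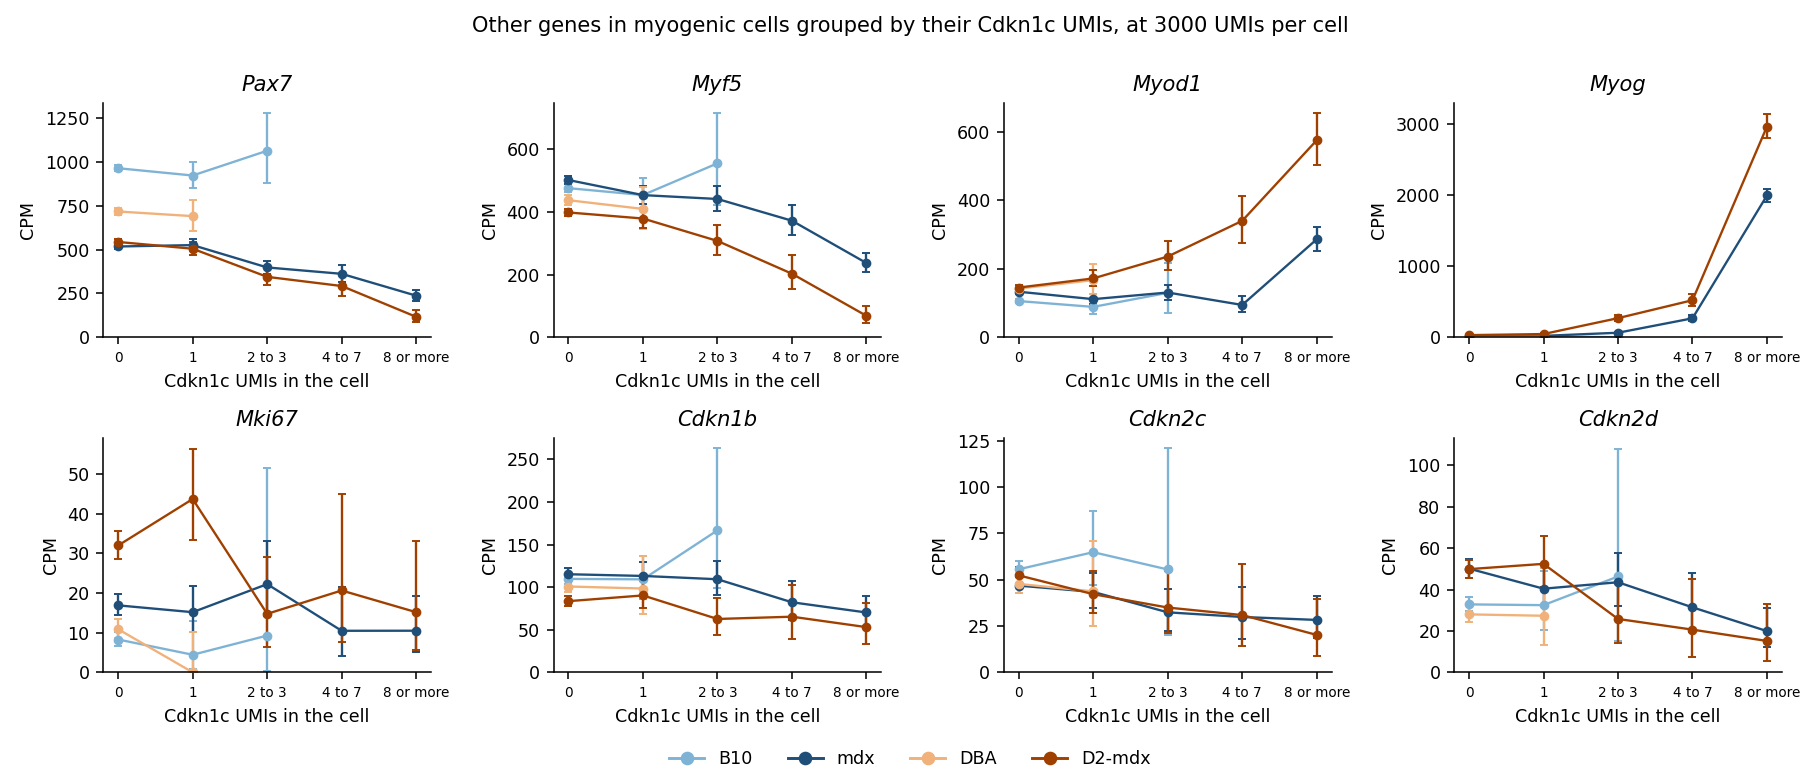
CPM (y axis, from 0) of myogenic factors, *Mki67* and the other inhibitors in myogenic cells thinned to 3000 UMIs and grouped by their *Cdkn1c* UMIs (x axis), per library, with 95% Poisson intervals, for groups of at least 20 cells. *Myog* reaches 1991 CPM in *mdx* and 2960 CPM in D2-*mdx* in cells with 8 or more *Cdkn1c* UMIs, where *Pax7* is at 237 and 116 CPM.

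*Cdkn1b*, the other CIP/KIP member, was the more even gene. In the myogenic cells it was at 104 CPM in B10 (101 to 108), 98.1 CPM in *mdx* (95.1 to 101), 99.5 CPM in DBA (96.0 to 103) and 66.9 CPM in D2-*mdx* (64.2 to 69.7). D2-*mdx* was the low library, with a log2 ratio of -0.57 (-0.65 to -0.49) to DBA and -0.55 (-0.63 to -0.48) to *mdx*, and *mdx* over B10 was -0.09 (-0.15 to -0.03). At the state composition of DBA the D2-*mdx* ratio was -0.24, and that of *mdx* at the composition of B10 was 0.15. In MuSC-like cells *Cdkn1b* was at 107, 120, 101 and 88.3 CPM in B10, *mdx*, DBA and D2-*mdx*. It was lower in other states of the dystrophic libraries, at 53.0 and 41.4 CPM in differentiating, 47.9 and 31.3 CPM in cycling and 45.3 and 29.3 CPM in the *Esm1* cluster of *mdx* and D2-*mdx*. *Cdkn1b* was thus low in the differentiating cells of the dystrophic libraries, where *Cdkn1c* was highest. In B10 and DBA these cells held 79.2 CPM (57.3 to 107) and 91.4 CPM (71.8 to 115). Both intervals reached the level over all myogenic cells. The *Esm1* cluster was at 42.1 and 36.7 CPM in B10 and DBA. Cycling cells were at 124 CPM in B10 (68.0 to 209, 8 cells) and 143 CPM in DBA (109 to 185, 26 cells). In the matrix-expressing state, next in *Cdkn1c*, *Cdkn1b* was at 95.8 and 60.7 CPM in *mdx* and D2-*mdx*, near its level over all myogenic cells. *Cdkn1b* was found in 13.8% of *Myog*+ against 27.5% of *Myog*- cells in *mdx* and 14.0% against 22.5% in D2-*mdx*. The highest level of all was in Schwann cell-like cells, at 1124 CPM in *mdx* (1024 to 1230, 79 cells) and 523 CPM in D2-*mdx* (447 to 608, 48 cells), and with 131 UMIs in 14 B10 and 97 UMIs in 11 DBA cells.

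The INK4 members were lower. *Cdkn2c*, which encodes p18, was at 51.7 CPM in B10 (49.5 to 54.0), 37.9 CPM in *mdx* (36.0 to 39.8), 49.6 CPM in DBA (47.1 to 52.2) and 42.7 CPM in D2-*mdx* (40.6 to 45.0) over the myogenic cells. Both dystrophic libraries were below both healthy ones, with log2 ratios of -0.45 (-0.55 to -0.35) and -0.21 (-0.32 to -0.11). In MuSC-like cells the levels were nearer, at 52.6, 47.5, 49.6 and 54.5 CPM. The low dystrophic totals went with low levels in differentiating cells, 13.5 CPM in *mdx* (9.76 to 18.2) and 16.5 CPM in D2-*mdx* (11.8 to 22.3), and in the *Esm1* cluster, 18.5 and 18.3 CPM. The matrix-expressing state was also below the totals, at 32.2 and 32.3 CPM. It held 27.9% and 17.5% of all myogenic UMIs, more than differentiating cells or the *Esm1* cluster. In B10 and DBA, differentiating cells (29.5 and 37.1 CPM) and the *Esm1* cluster (22.7 and 25.3 CPM) were below the totals too. Among the non-myogenic types with 20 cells or more, glial cell-like cells were the highest, between 86.8 and 98.3 CPM in the 4 libraries, and endothelial cell-like cells the lowest, at 11.8 and 11.5 CPM in *mdx* and D2-*mdx*.

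*Cdkn2d*, which encodes p19, went the other way. It was at 31.7 CPM in B10 (30.01 to 33.54), 39.8 CPM in *mdx* (37.9 to 41.8), 27.9 CPM in DBA (26.0 to 29.8) and 43.8 CPM in D2-*mdx* (41.6 to 46.1). Both dystrophic libraries were above both healthy ones, with log2 ratios of 0.33 (0.22 to 0.44) and 0.65 (0.53 to 0.77), below 2-fold. The difference was larger in MuSC-like cells, at 31.9, 49.3, 28.0 and 54.3 CPM and ratios of 0.63 (0.50 to 0.75) and 0.95 (0.81 to 1.09). Like *Cdkn2c*, it was low in differentiating cells (8.15 to 15.3 CPM) and in the *Esm1* cluster (8.86 to 16.0 CPM) of all libraries. Over the 6 MuSC-like clusters of *mdx* it ran from 20.1 to 69.0 CPM, lowest in the cluster led by *Gm3336*, *Neu1* and *Gm26615* and highest in that led by *1200007C13Rik*, *Ier3* and *Nr4a1*, of which *Ier3* and *Nr4a1* are immediate-early genes. In the 26 DBA cells of the cycling state *Cdkn2c* was at 114 CPM (83.9 to 152) and *Cdkn2d* at 102 CPM (73.6 to 138). The cycling cells of D2-*mdx* were at 39.0 and 40.1 CPM and those of *mdx* at 43.1 and 46.6 CPM. The DBA *Cdkn2c* UMIs lay in 7 cells, with up to 15 in a cell, and the *Cdkn2d* UMIs in 10, with up to 13. The CPM intervals do not cover this spread. In thinned cells *Cdkn2d* was found in 1 of 26, against 8.93% and 9.38% in D2-*mdx* and *mdx*. *Cdkn2c* was found in 6 of 26, against 8.65% and 13.1%. The intervals of these shares overlap, so neither gene is read as higher in this state. *Mki67* was also higher in CPM in these DBA cells, at 836 CPM against 266 and 270 CPM.

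*Cdkn2c* and *Cdkn2d* were the pair of members whose levels were most alike over the 17 sums of a myogenic state in a library with at least 50 cells, with a Pearson r of 0.77 for log2(CPM + 1). *Cdkn1b* had r of 0.64 with *Cdkn2c* and 0.47 with *Cdkn2d*, and *Cdkn1c* had -0.47, -0.18 and -0.08 with *Cdkn2c*, *Cdkn2d* and *Cdkn1b*. These sums share libraries and cell states, so r is a description. The 250 bases before the start of this pair are shown 5′ to 3′ on the gene's strand, from RefSeq on GRCm38.p6, with each GC box (GGGCGG, or CCGCCC on the other strand) in capitals. The window of *Cdkn2c* is chr4:109666757-109667006 and that of *Cdkn2d* chr9:21291210-21291459, both on the minus strand. These RefSeq starts differ from the GENCODE gene bounds given above. By those bounds the *Cdkn2c* window lies inside its gene, and the *Cdkn2d* window overlaps its gene.
Cdkn2c: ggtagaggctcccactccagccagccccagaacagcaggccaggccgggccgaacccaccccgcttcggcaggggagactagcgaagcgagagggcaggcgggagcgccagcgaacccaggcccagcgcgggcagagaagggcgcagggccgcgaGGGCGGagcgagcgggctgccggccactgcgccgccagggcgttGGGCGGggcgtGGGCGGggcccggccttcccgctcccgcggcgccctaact
Cdkn2d: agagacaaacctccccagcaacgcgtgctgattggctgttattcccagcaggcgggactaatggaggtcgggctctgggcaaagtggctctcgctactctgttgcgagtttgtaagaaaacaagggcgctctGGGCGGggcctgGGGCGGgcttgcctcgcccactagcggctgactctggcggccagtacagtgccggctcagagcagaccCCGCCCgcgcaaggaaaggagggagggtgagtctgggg
Each window held 3 GC boxes. Of the 32851 promoter windows of the same length, 32.7% held 1 or more and 8.47% held 3 or more. Neither window held an E2F motif spelled TTCCCGCC (1.86% of windows) on either strand. Neither held an E-box spelled CANNTG, the motif of myogenic factors (66.2% of windows). *Cdkn1b* held 1 GC box and neither of the other motifs, and a downstream start of *Cdkn2c* held none of the 3. A match or its absence says only which letters stand in these windows.

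Few cells held several inhibitors at this depth. At 3000 UMIs, 53.5% of B10, 37.0% of *mdx*, 56.1% of DBA and 46.8% of D2-*mdx* myogenic cells had no UMI of any of the 4 members, and 2 of them were found together in 9.11%, 14.9%, 6.67% and 11.7%. In the dystrophic libraries, *Cdkn1c* was found together with another member somewhat less often than the product of their separate shares gives. The number of cells with both *Cdkn1c* and another member was 0.77 to 0.91 times that product in *mdx* and D2-*mdx*, and 0.83 to 1.12 times in the healthy libraries. The *Cdkn1c*+ cells of *mdx* had *Cdkn2c* in 9.93% (8.49 to 11.5) against 12.7% of *Cdkn1c*- cells, and *Cdkn2d* in 9.67% (8.25 to 11.2) against 13.1%. Along the *Cdkn1c* count, *Cdkn1b* was at 115 CPM in *mdx* cells with 0 and 70.2 CPM (54.4 to 89.2) in those with 8 or more UMIs, *Cdkn2c* at 46.8 and 28.3 CPM (18.7 to 41.2) and *Cdkn2d* at 50.1 and 19.9 CPM (12.0 to 31.1). In D2-*mdx* the same groups gave 83.5 and 53.0 CPM, 52.4 and 20.2 CPM, and 49.9 and 15.2 CPM. Cells rich in *Cdkn1c* thus held less of the INK4 members than cells without it in both dystrophic libraries.

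The pathway around the members was read in the same myogenic sums. Of the 4 other CDK inhibitors, 3 reached 10 CPM and all 3 were at least 2-fold higher in both dystrophic libraries (4.71% and 5.83% of all genes). *Cdkn2a* and *Cdkn2b* reached 10 CPM only in the dystrophic libraries. Their place in this count was close to fixed by the minimum, so nothing is read from the count. *Cdkn1a*, which encodes p21, was at 39.6 CPM in B10, 178 CPM in *mdx*, 46.7 CPM in DBA and 206 CPM in D2-*mdx*. *Cdkn2a*, whose 3′ reads do not part p16 from the p19ARF transcript, was at 1.15, 73.1, 2.29 and 108 CPM, and *Cdkn2b*, which encodes p15, at 1.53, 12.5, 1.49 and 13.5 CPM. By these levels the dystrophic libraries had more of p21, p16 or ARF, and p15 transcripts as well as of *Cdkn1c*, while *Cdkn1b*, *Cdkn2c* and *Cdkn2d* stayed within 2-fold.

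Among 11 kinases and cyclins that the members bind, 1 of the 5 tested in *mdx* was at least 2-fold higher and 0 were lower, and 5 of 9 were higher in D2-*mdx* and 0 lower. Of all tested genes, 4.71% were higher and 5.17% lower in *mdx*, and 5.83% higher and 5.83% lower in D2-*mdx*. Without the 10 CPM minimum, 6 of 11 were higher in *mdx*, where 1864 of all 19329 genes were, and 7 of 11 in D2-*mdx*, where 2124 of 19108 were. Given these shares, nothing is read from the counts of the pocket protein and turnover lists below. *Cdk6*, the kinase that p18 and p19 hold, was the gene past 2-fold in both, at 11.1 CPM in B10, 77.0 CPM in *mdx*, 13.0 CPM in DBA and 76.6 CPM in D2-*mdx*. *Ccne1*, *Ccna2*, *Cdk1* and *Ccnb1* passed in D2-*mdx*, at 13.0 to 21.1 CPM. They were under the 10 CPM minimum in *mdx* and B10 and so were not tested there. Of the 11 genes, 5 reached it in DBA or B10 and 9 in D2-*mdx* or DBA. Some of the higher genes thus entered the D2-*mdx* count through D2-*mdx* alone, and nothing is read from that count. *Cdk4* was at 133 and 183 CPM in B10 and *mdx* and at 144 and 201 CPM in DBA and D2-*mdx*, and *Ccnd3* between 227 and 268 CPM in the 4 libraries. Of 16 pocket protein, E2F and DREAM genes, 1 of 11 tested was higher in *mdx*, *Tfdp2* (41.8 to 104 CPM), and 1 of 9 was lower in D2-*mdx*, *Rbl2*, which encodes the pocket protein p130 (34.3 to 16.0 CPM). *Rb1* was at 22.5, 27.8, 21.7 and 24.0 CPM in B10, *mdx*, DBA and D2-*mdx*. The 8 tested genes that degrade p27 and p57 included none past 2-fold, with *Skp2*, the F-box protein that binds both, at 37.9 and 25.7 CPM in B10 and *mdx* and at 47.5 and 42.4 CPM in DBA and D2-*mdx*.

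Of 11 genes of the imprinted domain around *Cdkn1c*, 5 were tested and 0 passed 2-fold in either direction in either comparison, a count from which nothing is read, given that 4.71% and 5.17% (*mdx*) or 5.83% and 5.83% (D2-*mdx*) of all genes passed. *Kcnq1ot1*, the long noncoding RNA whose paternal transcription silences the domain, was at 364 CPM in B10, 387 CPM in *mdx*, 392 CPM in DBA and 283 CPM in D2-*mdx*. *Cd81* was at 347, 467, 352 and 515 CPM and *Nap1l4* at 87.9, 102, 90.6 and 111 CPM. *Phlda2*, another maternally expressed gene of the domain, was at 0.14 CPM or less in the 4 libraries. Of 10 regulators linked to *Cdkn1c* or *Cdkn1b* transcription, 1 was higher in both dystrophic libraries, *Plagl1*, an imprinted zinc finger factor (39.0 to 177 CPM from B10 to *mdx*, and 17.7 to 61.4 CPM from DBA to D2-*mdx*), and *Foxo1* was lower in *mdx* alone (153 to 73.2 CPM, and 119 to 73.5 CPM in D2-*mdx*). Given the shares of all genes above, nothing is read from these counts either. *Hes1* and *Heyl*, targets of Notch signalling, were below their controls by less than 2-fold in both, with log2 ratios of -0.53 and -0.84 in *mdx* and -0.69 and -0.79 in D2-*mdx*. The values of *Hey1*, *Foxo3*, *Foxo4*, *Ezh2* and *Tcf3* are not given here. The median log2 ratio over the regulators was -0.26 in *mdx* and -0.54 in D2-*mdx*, against -0.03 and -0.07 over all genes tested. It pools the whole list and is not read as a direction for *Cdkn1c*.

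The genes whose levels were most like *Cdkn1c* over 17 myogenic sums, among 4652 genes with at least 50 CPM in a sum, were *Six4* (r 0.95), a homeobox factor of muscle development, *Plod2* (0.94), a collagen lysyl hydroxylase, *Gamt* (0.93), which makes creatine, *Derl1* (0.93) and *Ryr1* (0.91), the calcium release channel of skeletal muscle. Over the 30 sums of all classes and 7037 genes they were *Cnot6l* (0.82), *Svbp* (0.79), *Atp6v0a2* (0.76), *Sh3glb1* (0.76) and *Myog* (0.75). No gene was in both lists. For the other members over the myogenic sums they were *Crebrf*, *Tspyl1* and *Bbx* for *Cdkn1b* (0.95 to 0.96), *Sh3bgrl*, *Spaca6* and *Cyb5a* for *Cdkn2c* (0.84 to 0.88), and *Pcbd2*, *Sri* and *Tppp3* for *Cdkn2d* (0.85 to 0.88). Over all classes they were *Kif13b*, *Ptpdc1* and *Fut8* for *Cdkn1b* (0.85 to 0.90), *Mpst*, *Cdc42ep5* and *Rnd3* for *Cdkn2c* (0.74 to 0.77), and *Pcbd2*, *Spata6* and *Pon2* for *Cdkn2d* (0.70 to 0.75).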

How the data were processed

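Single cells of 4 libraries were processed by the authors with Cell Ranger 3.0.1 on mm10, per the labels, and the deposited matrices hold raw UMI counts per gene and barcode. The cells kept had 1000 to 5000 genes and no more than 8% mitochondrial UMIs, doublets were called per library with Scrublet in scanpy 1.11.5 and removed (91 to 356), and cells were integrated by library and clustered with Seurat 5.3.0 (2000 features, 30 dimensions, resolution 0.1 over all cells, then 0.4 over the myogenic ones). Resolution 0.2 had been listed first and was replaced after it put matrix-expressing and *Myog* cells in 1 cluster. Clusters were named by marker genes. Counts were summed per library and state and given as CPM with exact intervals at 95% (scipy 1.17.1). Library totals were 43542853 to 75482888 UMIs. Genes that reached 10 CPM in either library of a pair were compared with a 2-fold limit and are called tested, with no p-value. For shares, each cell was thinned to 3000 UMIs. Groups under 20 cells were given as UMIs or as values with their cell number, and a count of 0 was set against a floor of 3 UMIs.

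The members, gene lists and comparisons were chosen with earlier results of these data known. The text names the 4 members, list genes past the minimum of 10 CPM, partner genes, *Dmd*, leading genes of clusters and the genes of highest correlation; *Phlda2* was added after its values were seen. Alternatives were edgeR 4.0.16 (TMM) and DESeq2 1.42.0 size factors, other cell filters, clusterings and thinning depths. The intervals and the recovery of known changes were tested on simulated data.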

Additional observations from a re-analysis of the deposited data

Results flagged for a closer look

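In MuSC-like cells *Cdkn1b* and *Cdkn2c* differed in opposite directions in the B10 and DBA backgrounds, which is why they are listed here. The log2 ratio of *Cdkn1b* was 0.16 (0.09 to 0.24) between *mdx* and B10 and -0.20 (-0.28 to -0.11) between D2-*mdx* and DBA. *Cdkn2c* had -0.15 (-0.26 to -0.03) and 0.14 (0.02 to 0.25). The difference between backgrounds was not tested, since each strain is 1 library, and all these ratios lie far below 2-fold. They kept their signs with TMM and DESeq2 library sizes over the MuSC-like sums. With either, however, the interval of *Cdkn2c* for *mdx* over B10 spanned both signs.

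The B10 library also held 4278 barcodes with under 500 genes, which no comparison used, whereas the other libraries held 11 to 14. In these B10 barcodes *Cdkn1c* was at 11.4 CPM (7.14 to 17.2), *Cdkn1b* at 26.9 CPM (20.1 to 35.3), *Cdkn2c* at 24.3 CPM (17.9 to 32.4) and *Cdkn2d* at 15.5 CPM (10.5 to 22.2), each above the limit that a count of 0 allows and below its level in the B10 myogenic cells.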

How the results depend on the processing

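Each comparison made set 1 library against 1 library, so it could not be paired and no replicate could be left out. A fit over both backgrounds with background as a block was not run. Library sizes from TMM or DESeq2 shifted every log2 ratio by at most 0.08. The 16 log2 ratios of the members over the myogenic cells kept their sign under every alternative, but the order of *Mki67*+ and *Mki67*- cells and that of *mdx* and D2-*mdx* MuSC-like cells changed, as given below. The cause of the changes below was not tested. With DESeq2 sizes, *Cdkn1c* was 3.496 (D2-*mdx* over DBA) and -0.89 (D2-*mdx* over *mdx*) and *Cdkn1b* -0.49 (D2-*mdx* over DBA). With cells from 500 genes and no upper limit, *Cdkn1c* was 4.97, 3.12 and -1.08, *Cdkn1b* -0.22, -0.90 and -0.77, and *Cdkn2c* -0.55, -0.49 and 0.0545 for *mdx* over B10, D2-*mdx* over DBA and D2-*mdx* over *mdx*, and *Cdkn2d* was 0.37 for D2-*mdx* over DBA. Over all kept cells *Cdkn1c* was 4.60, 2.93 and -0.98, and for D2-*mdx* over DBA *Cdkn1b* was -0.41 and *Cdkn2c* -0.0627.

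At resolution 0.2, with the members allowed in clustering and without integration, in this order, *Cdkn1c* in MuSC-like cells was 108, 109 and 58.2 CPM in *mdx* and 53.5, 50.6 and 67.8 CPM in D2-*mdx*. Without integration clusters split by library, and the 67.8 CPM (46.4 to 95.8) rests on 87 cells against 2894, since 2700 D2-*mdx* cells fell in a cluster scored as mature myonuclei. In the matrix-expressing state of *mdx* it was 2004, 1366 and 908 CPM, and 1304 CPM at 0.2 in D2-*mdx*. In differentiating cells it was 5945 CPM in *mdx* and 4548 CPM in D2-*mdx* with members allowed and 4608 CPM in D2-*mdx* without integration, and resolution 0.2 gave no such cluster. At the control's state composition the log2 ratios were 3.37, 3.21 and 1.90 in *mdx*, and 1.83 at 0.2 and 1.89 without integration in D2-*mdx*.

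The percent of cells with *Cdkn1c* changed with the depth, and some shares were lower without thinning than at 5000 UMIs. Cells below a depth were left out at that depth, so these settings cover different sets of cells. At 2000 UMIs, 5000 UMIs and without thinning, *mdx* gave 23.7, 42.5 and 45.2 in *Pax7*+ and 31.6, 54.3 and 45.4 in *Pax7*-, 77.8, 81.3 and 78.3 in *Myog*+ and 24.4, 41.9 and 42.3 in *Myog*-, and 20.2, 43.2 and 54.1 in *Mki67*+ and 27.3, 45.1 and 44.5 in *Mki67*- cells. D2-*mdx* gave 12.4, 26.4 and 30.9 in *Pax7*+ and 22.2, 38.2 and 39.2 in *Pax7*-, 13.4, 25.1 and 28.4 in *Myog*-, and 14.2, 25.8 and 39.1 in *Mki67*+ and 16.7, 29.4 and 31.3 in *Mki67*- cells. With no minimum level, genes past 2-fold numbered 1864 higher and 1755 lower of 19329 in *mdx* and 2124 and 1770 of 19108 in D2-*mdx*. Among the lists, 6 of 11 kinases and cyclins, 4 of 4 other CDK inhibitors and 2 pocket protein or E2F genes were then higher in *mdx*, and 7 of 11, 4 of 4, 2 and 1 gene of the imprinted domain in D2-*mdx*.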
